A study of Mus musculus with 6 samples.

Results

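A set of 10 genes of the apelin and vascular growth factor systems were followed in mouse mammary glands: the ligands Apln, Vegfa, Vegfb, Vegfc, Pgf, Angpt1, Angpt2 and Adm, the apelin receptor Aplnr, and the endothelial proteoglycan Esm1. These 10 of the 18193 genes with a probe set on the array were chosen by symbol, around Apln, whose lower signal in Elf5 KO glands was already known. All 17 probe sets annotated to 1 of these symbols alone were taken. The KO against wild-type values below are therefore a description, and no p-value among them supports the choice. Of the 10 genes, 9 passed the filter on dim signals, and Esm1 did not.

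The arrays came from 3 Elf5 KO mice and 3 wild-type mice, 1 gland RNA and 1 one-colour Affymetrix array each. Elf5 is an ETS-family transcription factor of the luminal epithelium that takes part in the formation of milk-secreting alveoli. The sample labels give the glands as pregnancy day 17, the series text as lactation day 1, and both refer to these 6 arrays, so no stage is assumed. The sources used here do not say how Elf5 was disrupted or in which cells, nor the strain and age of the mice. The 2 groups share no other treatment or allele in the labels.

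Blood vessels of the gland grow with the alveoli in pregnancy, and their growth is set by secreted ligands. VEGF family ligands act on the endothelial receptors Flt1, Kdr and Flt4. The angiopoietins act on Tek, which Angpt1 activates and Angpt2 can block. Apelin acts on the G protein-coupled receptor Aplnr, and adrenomedullin, the product of Adm, on Calcrl paired with a Ramp protein. Apln, Angpt2 and Esm1 are known as genes of endothelial tip cells at growing vessel ends, and Vegfa and Adm as genes induced by low oxygen through Hif1a and Epas1. Apelin is also secreted by adipocytes.

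Elf5 is an ETS factor, and the ETS core GGAA can be looked for before the starts of the genes. The 250 bases before RefSeq starts (GRCm38) were read for 7 of the 10 genes, for Pgf at inner starts only. Those of Aplnr, Angpt1 and Angpt2 were not analysed here. The windows of Apln, Vegfa and Adm are printed as examples of a gene called lower, a gene with a lower mean and a gene with a higher mean in the KO. These windows are shown 5′ to 3′ along the gene, with the ETS core GGAA and the hypoxia response element core ACGTG in capitals on either strand (as TTCC and CACGT on the other strand).

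Apln, chrX:48034854-48035103, minus strand: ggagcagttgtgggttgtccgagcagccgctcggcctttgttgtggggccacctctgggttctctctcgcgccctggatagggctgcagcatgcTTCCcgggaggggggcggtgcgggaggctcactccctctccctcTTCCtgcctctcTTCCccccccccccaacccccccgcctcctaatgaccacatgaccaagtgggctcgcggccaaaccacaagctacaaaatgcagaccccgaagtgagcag

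Vegfa, chr17:46032378-46032627, minus strand: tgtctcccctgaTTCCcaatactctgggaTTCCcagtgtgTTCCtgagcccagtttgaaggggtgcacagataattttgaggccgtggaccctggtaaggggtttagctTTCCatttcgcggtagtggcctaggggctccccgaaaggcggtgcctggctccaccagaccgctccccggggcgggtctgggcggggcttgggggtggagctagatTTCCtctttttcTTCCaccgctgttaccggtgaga

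Adm, chr7:110627407-110627656, plus strand: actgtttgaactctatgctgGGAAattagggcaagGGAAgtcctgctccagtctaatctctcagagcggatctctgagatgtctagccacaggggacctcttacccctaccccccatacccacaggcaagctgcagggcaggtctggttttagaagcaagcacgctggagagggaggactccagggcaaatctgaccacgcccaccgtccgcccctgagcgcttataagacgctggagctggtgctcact

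The Apln window held 3 ETS cores, the Vegfa window 6 and the Adm window 2. Neither of the 2 Pgf windows held one, but both lie before inner starts, and the bases before the outer Pgf start were not read. GGAA was found in 93.4% of all 32851 windows of this length, so its presence sets none of these genes apart. A longer ETS motif, CGGAAG, which contains the core, was in 13.6% of windows and in none of the 9 windows of these genes. ACGTG was in 16.6% of all windows and in 1 of the 9, at an inner start of Vegfa. These are matches of letters and not binding sites.

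Elf5 itself read 5616.4, 4360.9 and 3127.7 in KO arrays 1, 2 and 3, against 12010.8, 8043.9 and 7243.5 in wild-type arrays 1, 2 and 3, on the probe set with the higher mean. All 3 KO values lay below all 3 wild-type values, with a KO mean of 48.0% of wild type. A second Elf5 probe set had a KO mean of 33.7% of wild type. The place of these probe sets relative to the disrupted sequence is unknown, so the signal that remained cannot be taken for intact message. The Gapdh 3'/5' control ratio, which goes up with RNA degradation, set 2 KO arrays apart. It stood at 0.802, 3.89 and 13.6 for KO arrays 1, 2 and 3, against 1.09, 0.833 and 0.876 for wild type (group difference 1.92 on the log2 scale, exact permutation p = 0.4, two-sided). With 3 arrays against 3 this p cannot go below 0.1. The Actb 3'/5' ratio set only KO array 3 apart, at 1.58, 1.87 and 21 for KO arrays 1, 2 and 3. In wild type it was 2.04, 1.2 and 1.84 (group difference 1.26 on the log2 scale, exact permutation p = 0.5). The differences of the 10 genes' main probe sets are therefore also given for KO array 1 alone against the wild-type mean. KO array 1 is the only KO array whose Gapdh and Actb ratios were both like those of wild type. The part of RNA quality in the differences was not tested. Among all genes tested, KO array 3 lay farther from the wild-type mean than KO array 1 in 75.4%, and so it did in 15 of the 17 probe sets of these genes.

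Apln, the apelin precursor, differed most. It read 458, 160.8 and 76.1 in the KO, against 1043.4, 1712 and 1229.3 in wild type. Every KO array was below every wild-type array, and the KO arrays spread over a wider range. The mean signal was 232 ± 201 in the KO and 1330 ± 345 in wild type (SD, n = 3 each), so that the KO held 17.4% of the wild-type signal. On the log2(signal + 16) scale, on which all differences are given and which understates those of dim genes, Apln differed by -2.74 ± 0.53 (limma SE, n = 3 each). Against the wild-type mean it stood at -1.47 in KO array 1, -2.90 in KO array 2 and -3.84 in KO array 3, in the order of their Gapdh ratios. Apln passed the threshold of 0.05 in the fit across all genes with little margin (limma adjusted p = 0.0471), and with the replicate number as a block (adjusted p = 0.0151). It did not pass with the Gapdh ratio as a covariate (-1.61, adjusted p = 0.132) or with every probe set tested on its own (adjusted p = 0.124), and over all alternatives its adjusted p ran between 0.0105 and 0.231. The call was also lost when KO array 2, KO array 3 or any 1 wild-type array was left out, although the difference then stayed between -2.89 and -2.18.

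Aplnr, the G protein-coupled receptor for apelin, gave different pictures on its 2 probe sets. The one with the higher signal read 1201.2, 979.7 and 3259.2 in the KO, against 578.3, 979 and 1208.6 in wild type. The groups overlapped, and only KO array 3 stood clearly above wild type. The mean difference was 0.82 ± 0.47 (limma SE, n = 3 each), and 0.44 in KO array 1. The other probe set read 155.7, 113.1 and 104.8 in the KO and 142.7, 122.4 and 132.2 in wild type, a difference of -0.09. Unlike its ligand, the receptor was lower in every KO array on neither probe set.

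**Figure D1:**
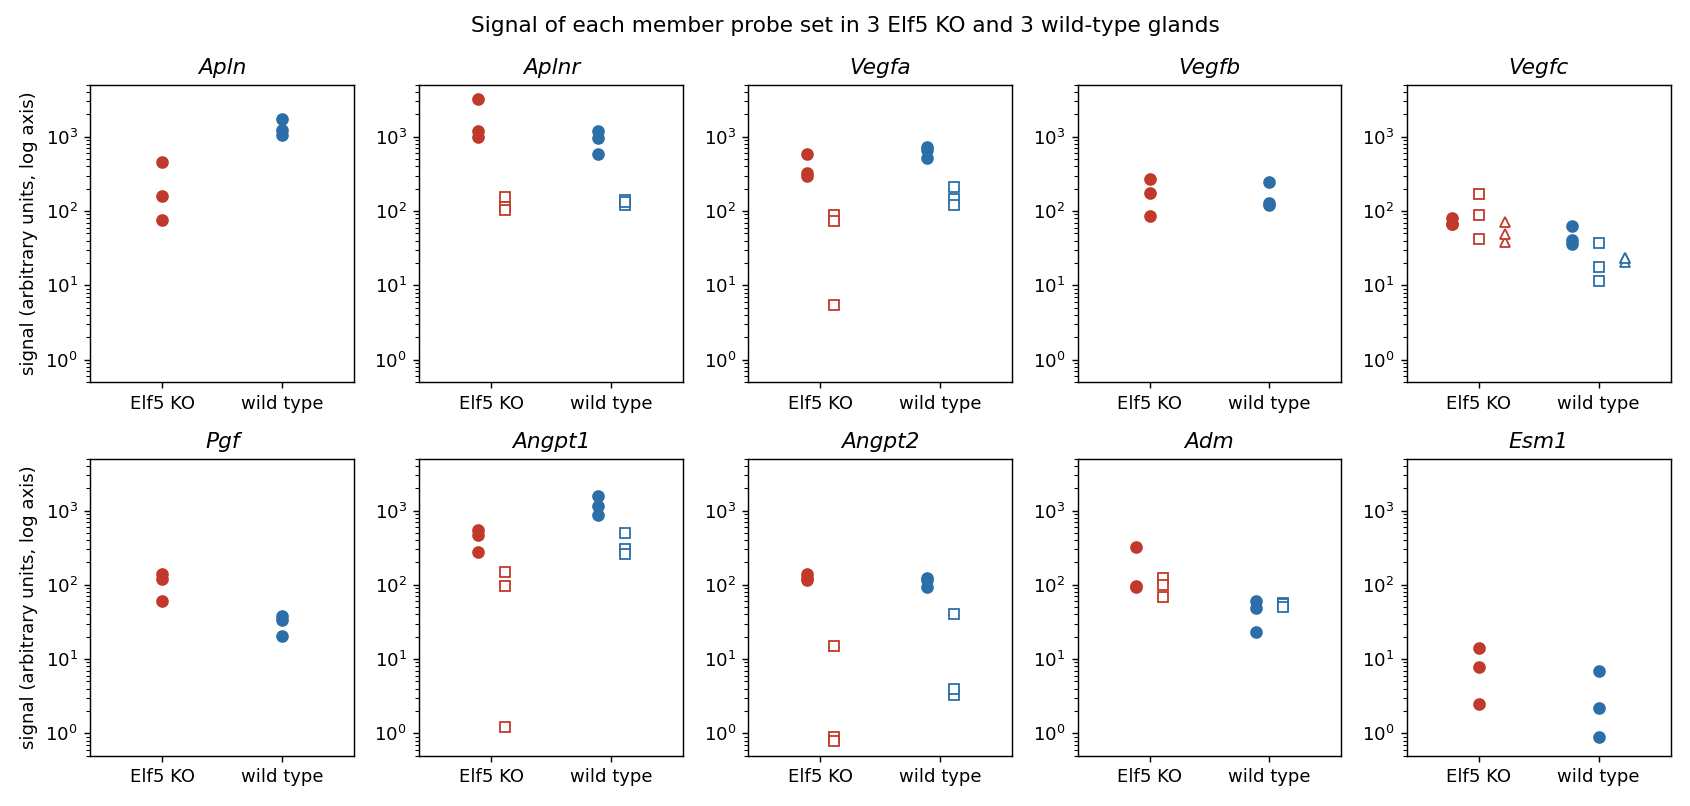
Signal of every probe set (log axis, arbitrary units) in the 3 Elf5 KO arrays (red) and 3 wild-type arrays (blue), 1 panel per gene, with filled circles for the probe set that stands for the gene and open squares or triangles for its other probe sets. Apln, both Angpt1 probe sets and the dimmer Vegfa probe set lie lower in every KO array, all 3 Vegfc probe sets, Pgf and both Adm probe sets lie higher, and Aplnr, Vegfb, Angpt2 and Esm1 overlap.

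The mean differences of Vegfa, Vegfb, Vegfc and Pgf did not share a direction, and none of these 4 passed the threshold in the fit across all genes. Among the alternatives Pgf passed with the replicate block and without KO array 1 (limma adjusted p = 0.0201). Vegfa, the main ligand of Kdr and a target of hypoxia-inducible factors, read 294.9, 582.1 and 322.9 in the KO, against 523.9, 673.9 and 721.9 in wild type. KO array 2 lay within the wild-type range, and KO arrays 1 and 3 lay below it. The difference was -0.71 ± 0.34 (limma SE, n = 3 each), and -1.06 in KO array 1, where the Gapdh ratio was lowest. A second Vegfa probe set read 88.7, 74 and 5.4 in the KO and 144.4, 210.7 and 121 in wild type. There the groups did not overlap and the difference was -1.54, of which KO array 3 held the most, with -3.00, against -0.71 in KO array 1. Both Vegfa probe sets thus had a lower KO mean, and neither passed the threshold.

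Pgf, placental growth factor, a ligand of Flt1, read 61.4, 119.8 and 140.5 in the KO, against 20.7, 38.2 and 33.8 in wild type. All KO arrays were above all wild-type arrays, and the KO mean was 347% of wild type. The difference was 1.35 ± 0.35 (limma SE, n = 3 each) and 0.74 in KO array 1. Vegfc, the lymphatic growth factor that acts on Flt4, was higher in every KO array on all 3 of its probe sets. Its representative probe set read 66.6, 80 and 68 in the KO, against 40.6, 35.5 and 62.1 in wild type, a difference of 0.52 ± 0.29, and 0.44 in KO array 1. The other Vegfc probe sets differed by 0.82 and by 1.50. The last of these, whose name marks possible cross-hybridisation, read 41.8, 87.8 and 168.2 in the KO and 11.4, 17.5 and 36.9 in wild type. Vegfb, a ligand of Flt1, showed no common direction: it read 274.5, 176.3 and 85.5 in the KO, against 127.7, 243 and 122.2 in wild type, with a difference of 0.05 ± 0.43, and 0.75 in KO array 1.

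Angpt1 had a lower mean in the KO without passing the threshold, and Angpt2 did not differ beyond the spread of the arrays. Angpt1, which activates the receptor Tek and stabilises vessels, read 554.6, 476.1 and 278.6 in the KO, against 885.4, 1555.1 and 1145 in wild type. No KO array reached the lowest wild-type array, and the KO mean was 36.5% of wild type. The difference was -1.44 ± 0.35 (limma SE, n = 3 each), and -1.05 in KO array 1. Among the alternatives Angpt1 passed with the replicate block and without KO array 1 (-1.63, limma adjusted p = 0.0297). The latter leaves the KO arrays with high Gapdh ratios. A second Angpt1 probe set read 149.3, 96.3 and 1.2 in the KO, against 300.2, 500.4 and 257.3 in wild type. It differed by -2.38 over all arrays and by -1.10 in KO array 1, close to the first probe set in that array, whereas in KO array 3 the 2 probe sets differed from wild type by -2.00 and -4.37.

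Angpt2, the context-dependent antagonist of Angpt1 at Tek, read 124.7, 140.4 and 117.5 in the KO, against 116.2, 93.9 and 122.3 in wild type. These values overlapped, and the difference was 0.18 ± 0.27 (limma SE, n = 3 each), and 0.16 in KO array 1. A second, very dim Angpt2 probe set read 15.1, 0.9 and 0.8 in the KO and 40.1, 3.3 and 3.9 in wild type, signals too low to give a direction.

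Adm, which encodes the vasodilator peptide adrenomedullin, read 97.5, 92.3 and 319.9 in the KO, against 59.8, 23 and 48.2 in wild type. The groups did not overlap, and KO array 3 was far above the other KO arrays. Its difference was 1.48 ± 0.47 (limma SE, n = 3 each) and 0.98 in KO array 1. The name of this probe set marks possible cross-hybridisation. The other Adm probe set read 69.2, 122.9 and 100.5 in the KO, against 56.8, 54.9 and 50.8 in wild type, with the same direction and a difference of 0.67, but only 0.28 in KO array 1. Esm1, an endothelial proteoglycan of growing vessels, was dim throughout, at 7.7, 2.5 and 14 in the KO and 2.2, 0.9 and 7 in wild type (0.30 in KO array 1), and was not tested.

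**Figure D2:**
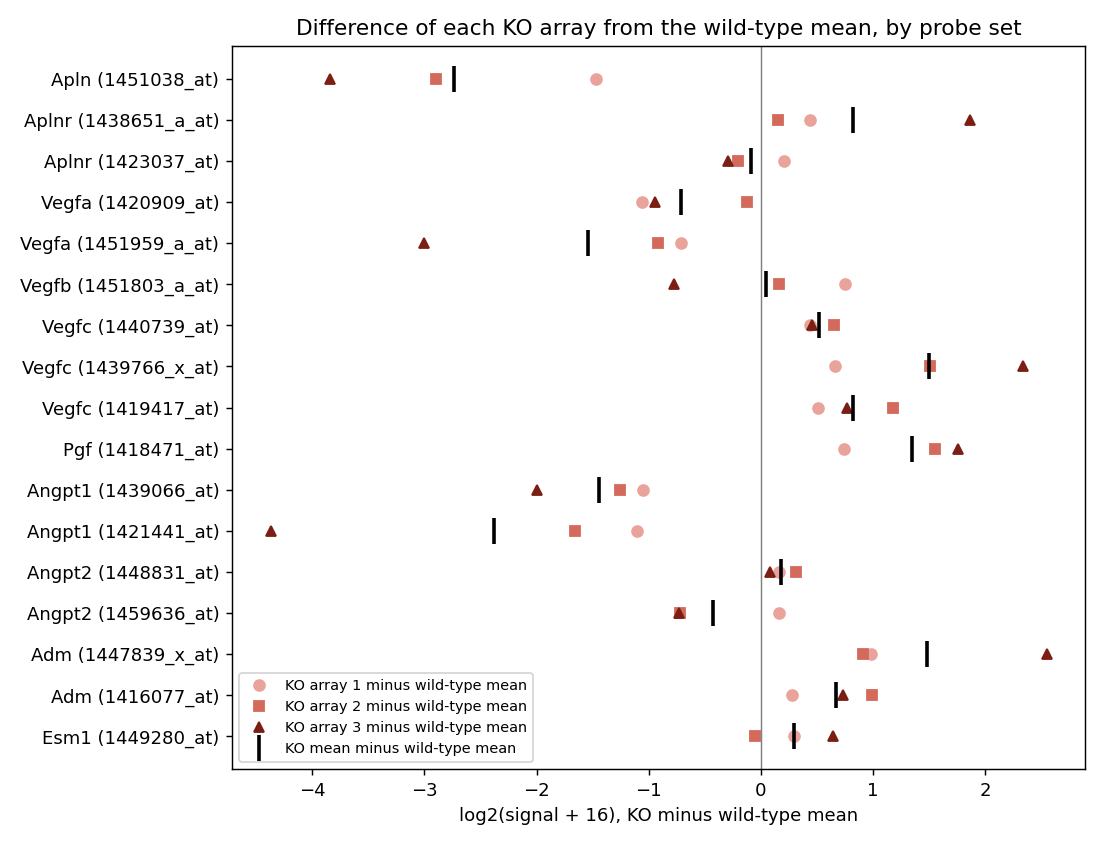
Difference of each KO array from the wild-type mean on the log2(signal + 16) scale for all 17 probe sets, with circles, squares and triangles for KO arrays 1, 2 and 3 and a black bar for the difference of the means. KO array 3 (triangles) is farther from 0 than KO array 1 (circles) in 15 probe sets, and for Apln the 3 KO arrays lie at -1.47, -2.90 and -3.84.

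Across the fit, 1 of the 9 genes tested, Apln, was called lower and 0 were called higher, against 0.110% of all 10916 genes called lower, 1.13% called higher and 1.24% called in either direction. Of the other 8, Angpt1 had the lowest adjusted p, 0.0722, and Vegfb the highest, 0.958, and 4 of the 9 had an unadjusted p under 0.05. In 5 of the 9 the groups did not overlap (2 lower, 3 higher), a pattern shown by 27.3% of all genes (10.6% lower, 16.7% higher). With the replicate number as a block, 4 of the 9 were called: Apln and Angpt1 (adjusted p = 0.0264) lower, Pgf (adjusted p = 0.0195) and Adm (adjusted p = 0.0345) higher, while 4.53% of all genes were called lower and 7.70% higher. Since the genes were picked with this contrast known, nothing is read from these shares. Pgf and Adm had wild-type means under the filter and entered the fit through their KO signals. The median difference of the 9 genes was 0.18, against 0.06 for all genes tested. In gland RNA, fewer cells of a type and less RNA per cell cannot be told apart.

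**Figure D3:**
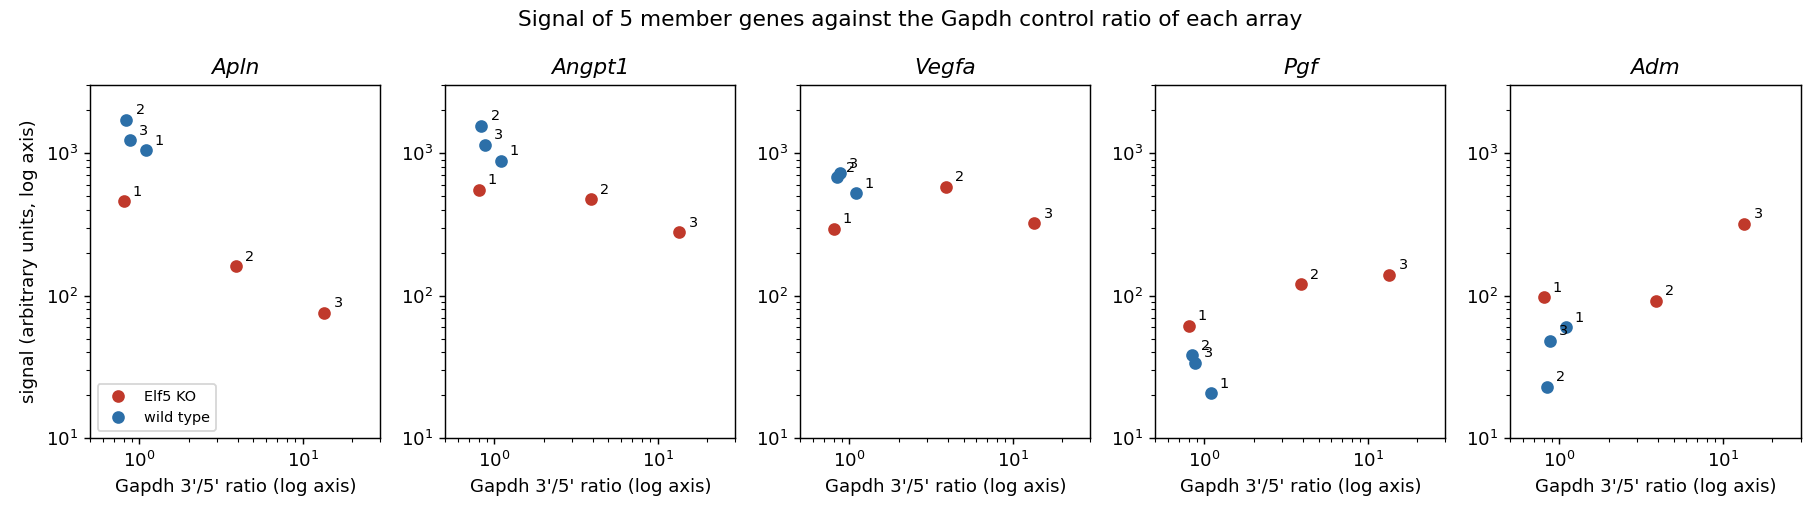
Signal of 5 genes against the Gapdh 3'/5' control ratio of the same array (both axes log), Elf5 KO in red and wild type in blue, with the replicate number beside each point. At ratios near 1, KO array 1 lies below the 3 wild-type arrays for Apln (458 against 1043.4 to 1712), Angpt1 and Vegfa and above them for Pgf and Adm, and KO arrays 2 and 3 lie at ratios of 3.89 and 13.6.

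Among the 6 arrays, the 5 genes whose log2 signal followed Apln most closely were Slc2a9, a urate transporter (Pearson r = 0.9932), the transglutaminase Tgm1 (0.9931), Ranbp17 (0.9931), the endocytic adaptor Dab2 (0.9928) and Nfkbib (0.9927), an inhibitor of NF-κB. Dab2 read 1843.7, 1087.4 and 661.9 in the KO, against 3730.7, 4030.3 and 3312.7 in wild type. Of the angiogenic genes, Angpt1 followed Apln most closely (r = 0.97, n = 6 arrays), and Pgf (-0.93) and Adm (-0.92) ran opposite to it. These points share the 2 groups and the RNA quality of the arrays, so such r values describe the common order of the arrays only.

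The wider pathway was read from a list of 70 further genes, written with earlier results of these data known. It held receptors, partners and regulators of the 10, and also 16 other angiogenic factors and 23 hypoxia targets. Of 57 that were tested, 2 rose, 0 fell and 55 did not pass, 41 had a higher KO mean and the list median was 0.27, against 0.06 for all genes, of which 1.13% were called higher and 0.110% lower. The VEGF ligand Vegfd, which acts on Flt4 like Vegfc, rose by 1.77 ± 0.33 (limma SE, adjusted p = 0.0446). Vegfd read 245.9, 307.1 and 259.2 in the KO, against 108.7, 58.2 and 47.5 in wild type. Its KO arrays lay close together, the difference in KO array 1 was 1.64, and 2 other probe sets had the same sign. The adrenomedullin receptor subunit Calcrl rose by 1.71 ± 0.34 (adjusted p = 0.0494), with 192.1, 216.5 and 422.9 in the KO and 62.8, 65.2 and 78.2 in wild type, and a difference of 1.30 in KO array 1. The other Calcrl probe sets did not show this, with one slightly lower and one near 0.

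None of the receptors of the VEGF ligands passed. Flt1 differed by 0.04 ± 0.31 (limma SE) on its main probe set (0.32 in KO array 1) and had lower KO means on its 3 other probe sets. Kdr differed by 0.06 ± 0.40 (0.37 in KO array 1), Flt4 by 0.15 and Nrp2 by 0.24. A dimmer Flt4 probe set differed by -0.29, and the dimmer Nrp2 probe sets by -0.08, 0.67 and -0.11. The co-receptor Nrp1 differed by 1.40 ± 0.53, mostly through KO arrays 2 and 3, at 960.6 and 1916.9, against 427.6 in KO array 1 and 198.5, 487 and 402.1 in wild type. It passed with the replicate block (adjusted p = 0.0295) and not in the fit without it (adjusted p = 0.173). The angiopoietin receptors Tek and Tie1 differed by 0.42 and -0.07, and the phosphatase Ptprb, which acts on Tek, by 0.80. None of the 3 tested angiopoietin partners passed.

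Of the other genes listed with adrenomedullin, the receptor activity modifier Ramp1 read 300.2, 135.3 and 113 in the KO. In wild type Ramp1 read 346.1, 372.6 and 541.8, a difference of -1.22 ± 0.39 (limma SE, adjusted p = 0.121). The other Ramp1 probe sets also had lower KO means, but by less. Whether Ramp1 takes part in the response to adrenomedullin was not tested. Ramp2 differed by 0.62 and Ramp3 by -0.81, so the subunits that pair with Calcrl did not share a direction, with or without Ramp1. Among apelin partners the peptidase Mme, which cleaves apelin, read 472.2, 811.5 and 906.3 in the KO and 160.6, 296.1 and 235.7 in wild type (1.58 ± 0.36, adjusted p = 0.0613, and 0.0148 with the block). Another Mme probe set differed by 0.40. The protease Furin differed by -0.40 and the angiotensin receptor Agtr1a by 0.53. A second apelin receptor ligand, Apela, was too dim to test.

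The genes of the oxygen-sensing pathway, through which Vegfa and Adm are known to be induced, had no common direction. Of 20 hypoxia targets tested, 12 had a higher and 8 a lower KO mean, with a median of 0.10, and none passed. Stc2, a secreted glycoprotein, differed by -1.17 ± 0.30 (limma SE), the stress-response gene Ndrg1 by -1.10 ± 0.34, and the glycolytic enzyme Aldoa by 0.72 ± 0.26. Their adjusted p was 0.0796 for Stc2, 0.118 for Ndrg1 and 0.160 for Aldoa. With the replicate block Stc2 (adjusted p = 0.0294) and Ndrg1 (adjusted p = 0.0435) were called lower and the glycolytic regulator Pfkfb3 (adjusted p = 0.0467) higher. Among the regulators, Epas1 differed by 0.80 ± 0.30, the ubiquitin ligase subunit Vhl by 0.91 ± 0.37, the oxygen sensor Egln1 by 0.56 and Hif1a by 0.13, and 0 of 8 passed, with or without the block. Of the 8 regulators, 6 had a higher KO mean and 2 a lower one, Egln2 (-0.44) and Egln3 (-0.61). The median of the 8 was 0.35, and -0.08 in KO array 1. On dimmer probe sets Epas1, Vhl and Egln1 had the opposite sign.

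Of 11 other angiogenic factors tested, 10 had a higher KO mean, with a median of 0.73 (0.83 in KO array 1), and none passed. The growth factor Fgf1 read 173.7, 325.5 and 384.2 in the KO, against 79.1, 87.5 and 95.2 in wild type (1.52 ± 0.34, adjusted p = 0.0610). The chemokine Cxcl12 differed by 1.28 ± 0.29 (adjusted p = 0.0613), and the secreted ribonuclease Ang by 1.82 ± 0.45 (adjusted p = 0.0755). With the replicate block, which called 7.70% of all genes higher, 4 of the 11 were called higher, these 3 and the angiogenesis inhibitor Thbs2 (adjusted p = 0.0284).

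**Figure D4:**
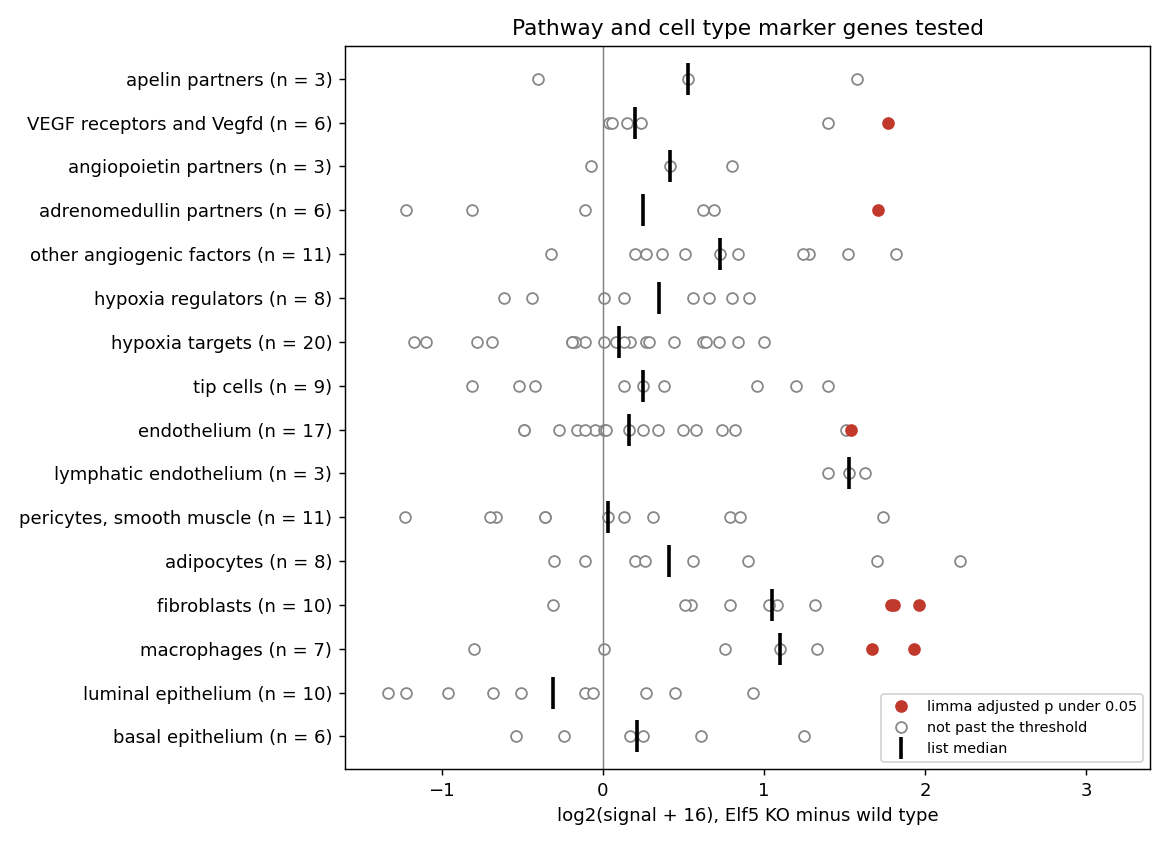
Log2 difference, Elf5 KO minus wild type, of each gene tested in the pathway lists (upper rows) and cell type marker lists (lower rows), with red points for genes past the threshold and black bars for list medians. Vegfd and Calcrl are the red points among the pathway lists, and the medians run from -0.31 for luminal epithelium to 1.53 for lymphatic endothelium. The latter covers only 3 genes, and its median in KO array 1 was 0.77.

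Markers of the cell types that could make or receive these ligands were read beside them. For comparison, 1.13% of all genes tested were called higher and 0.110% lower. Of 17 endothelial markers, 1 rose, the clotting factor carrier Vwf (1.54 ± 0.31, adjusted p = 0.0498), 11 had a higher mean, and the median was 0.16 (0.49 in KO array 1). Their summed signal was 5856, 4690 and 3720 in the KO, against 3584, 3622 and 3181 in wild type. After Vwf the smallest p belonged to Mmrn2 (1.51 ± 0.40, adjusted p = 0.0837, and 0.0354 with the block) and the transcription factor Sox17 (0.74 ± 0.33, adjusted p = 0.22). Lymphatic markers Lyve1, Pdpn and Reln had differences of 1.63, 1.53 and 1.40 without passing, except with the replicate block (adjusted p = 0.0295, 0.0391 and 0.0430), and in KO array 1 they stood at 1.02, 0.77 and -0.07. The lymphatic transcription factor Prox1 was dim in both groups and not tested, and it went the other way. It was lower in every KO array (1.6, 1.4 and 8.2 in the KO and 25, 42.6 and 23.3 in wild type, a difference of -1.22). Its other probe sets differed by -0.69 and -0.24. Mmrn1, also too dim to test, overlapped between the groups. Of 10 fibroblast markers, 3 rose, the protease Fap (1.96 ± 0.32, adjusted p = 0.0356), the matrix protein Dpt (1.81 ± 0.34, adjusted p = 0.0466) and the PDGF receptor Pdgfra (1.79 ± 0.36, adjusted p = 0.0487). The other Pdgfra probe sets differed by -0.24 and 0.76. Of the 10, 9 had a higher and 1 a lower KO mean, with a median of 1.05 (1.47 in KO array 1). Of 7 macrophage markers 2 rose, the scavenger receptor Cd163 (1.93 ± 0.30, adjusted p = 0.0356) and the mannose receptor Mrc1 (1.67 ± 0.29, adjusted p = 0.0446), followed by the growth factor receptor Csf1r (1.33 ± 0.40, adjusted p = 0.109, and 0.0184 with the block). Of these 7, 6 had a higher and 1 a lower KO mean, with a median of 1.10 (1.51 in KO array 1). The lower one, Cd14, was lower in every KO array (-0.80, adjusted p = 0.209), and Adgre1 differed by only 0.01. The summed fibroblast signal was 37045, 28358 and 21956 in the KO, against 19491, 12211 and 13197 in wild type. The macrophage sum was 12972, 9497 and 10680 in the KO, against 7560, 6873 and 9726 in wild type. Cd14 was the largest single part of that sum in every wild-type array, at 2894.9, 3688.8 and 6214.2. In the KO Cd14 read 2059.7, 2875 and 2108.1. None of 8 adipocyte markers passed, 6 had a higher and 2 a lower KO mean, and the median was 0.41 (1.05 in KO array 1). The adipocyte sum was 53002, 42537 and 35325 in the KO and 33565, 31798 and 31855 in wild type. Of 10 luminal epithelial markers, 3 had a higher and 7 a lower KO mean and none passed. The milk protein genes Csn2, Wap and Lalba summed to 33660, 29468 and 15886 in the KO, against 75307, 45328 and 23643 in wild type, and the other 7 markers to 15116, 19725 and 21247 in the KO, against 15025, 18073 and 21201 in wild type. The smallest p among them belonged to the tight junction gene Cldn7 (-1.22 ± 0.35, adjusted p = 0.0987, and 0.0324 with the block), Lalba (-1.33 ± 0.65, adjusted p = 0.263, and 0.0136 with the block) and Cldn3 (-0.96 ± 0.50, adjusted p = 0.286). No marker of any list was at 0 in an array. The part of these cell types in the ligand differences was not tested.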

How the data were processed

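The deposited table holds linear signal intensities of 45101 probe sets on 6 arrays. The submitters' processing notes name MAS5 and affy without version or order, so the authors' intensities are taken as MAS5 signals, and the values show a mean of 150 after 2% trimming at each end in every array. Column medians were 24.6 to 36.1 in the KO and 34.3 to 41.3 in wild type. Detection calls and scans were not analysed here. The sources used here name no genome build.

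Probe sets were named by the platform annotation, 34945 of them with 1 gene, 932 with several and 9160 (controls aside) with none listed, and symbols were checked by Entrez number against RefSeq. The probe set with the highest mean of log2(signal + 16) stood for a gene. Genes under the 40th percentile of that mean (a signal of about 43.8) were left out, which kept 10916 of 18193. The fit used limma (3.58.1, under R 4.3.3), with lmFit followed by eBayes with a trend on mean signal. P-values were adjusted by Benjamini-Hochberg over the 10916 genes, and 0.05 was the threshold. The fit was tested on simulated data. The number of arrays limits the precision. Samples were grouped by their titles, which call the replicates biological.

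Replicate numbers were checked for pairing. Deviations from the group means of same-numbered arrays correlated at 0.46, 0.34 and 0.29, each over the limit of 0.1, and at most at 0.15 between different numbers. The labels do not say that a number marks shared handling.

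The members and gene lists were chosen with earlier results of these data known. Named are all 10 genes, Elf5, in the lists the genes past the threshold and the 3 with the smallest p where a list is described, and the 5 genes most correlated with Apln; other receptors, partners and markers named beside these were chosen after their values were seen. Of the listed genes, 9 were not analysed here. Promoter windows are from RefSeq tables of GRCm38. Alternatives covered the pseudocount, filter, scaling, choice of probe set, eBayes options, block, RNA ratio and each array left out.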

Additional observations from a re-analysis of the deposited data

How the results depend on the processing

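Of 20 alternatives, Apln kept its direction in all and its call in 9 (adjusted p = 0.0105 to 0.231). The call was lost with a pseudocount of 1 (-2.86), without a filter, with the mean over a gene's probe sets and with every probe set tested on its own (-2.74 in all 3), with the Gapdh ratio as a covariate (-1.61) and in the arrays with a ratio under 2 (-1.47, which holds 1 KO array, assumed to vary like wild type). Leaving out 1 array gave -3.37 to -2.18. The number of genes called was 135 and became 85, 56, 75 and 0 (3842 at an unadjusted p under 0.05) in the first 4 of these, 0 with the covariate (1112) and 0 in the low-ratio arrays (1013), with no member gene called (0 against 1) in any of these 6. It was 1335 with the replicate block, with 4 member genes. Leaving out 1 array gave 0 to 1206 genes (0 without wild-type array 2, 1553 at an unadjusted p under 0.05) and 0 to 3 member genes. The 1206 genes and 3 member genes (Apln, Angpt1 and Pgf) came without KO array 1, which leaves the KO arrays with high Gapdh ratios. Higher genes made up 54.1% of the calls without KO array 1 and 63.0% with the block, against 91.1% as reported. The cause was not tested. Scaling each array to one median moved the median of all genes to 0.27, against 0.06, and no member changed direction under it or under quantile normalization. Vegfb turned to negative without KO array 1 (-0.31) and 3 other single arrays, and Angpt2 did in the mean over its probe sets (-0.12). Vegfc differed by 1.50 where the linear mean, an alternative chosen after seeing the data, picked its probe set. The replicate block changed the calls of Angpt1, Pgf and Adm and of no other member.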

Other observations

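Genes that mark endothelial tip cells beside Apln, Angpt2 and Esm1 did not share a direction. Of 9 tested, 6 had a higher and 3 a lower KO mean, with a median of 0.25, and none passed. The 3 with the smallest p were higher in every KO array. The basement membrane protein Nid1 read 1268.2, 2093.7 and 2461.7 in the KO, against 576.7, 799.2 and 740 in wild type (1.40, limma adjusted p = 0.0660, and 0.0164 with the replicate block), although a dimmer Nid1 probe set had the opposite sign. The chemokine receptor Cxcr4 differed by 0.96 (adjusted p = 0.122) and the laminin chain Lamb1 by 1.20 (adjusted p = 0.129, and 0.0294 with the block). The other Lamb1 probe sets differed by 1.20, -0.31 and 0.04. The 3 lower genes were Dll4 (-0.81), Pdgfb (-0.52) and Unc5b (-0.42), all with overlapping groups. Kcne3, too dim to test, was higher in every KO array (1.29).

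Pericyte and smooth muscle markers, which cover cells known to secrete Angpt1, had a median difference of 0.03 over 11 genes, with 6 higher and 5 lower, and none passed. Pdgfrb, the PDGF receptor of pericytes, read 283.2, 416.2 and 1324.2 in the KO, against 123.9, 181.9 and 151.1 in wild type (1.74, adjusted p = 0.0985, and 0.0301 with the block). The next were the potassium channel subunit Abcc9 (0.85, adjusted p = 0.140) and the signalling regulator Rgs5 (0.79, adjusted p = 0.174), whose dimmer probe sets had the opposite sign. The 5 lower were Cspg4 (-1.23), Cnn1 (-0.70), Myh11 (-0.66), Tagln (-0.36) and Acta2 (-0.36), and another Cspg4 probe set differed by 1.49. The summed signal of the 11 genes was 12091, 15661 and 14328 in the KO and 14424, 18705 and 15194 in wild type. Most of it was Acta2, at 7447.9, 8780.7 and 8732.3 in the KO and 10176.9, 11964.3 and 10004 in wild type. The sum and the median therefore do not describe pericytes alone. Of 8 adipocyte markers 6 had a higher and 2 a lower KO mean, with a median of 0.41 (1.05 in KO array 1), and none passed. Lep, which encodes leptin, differed by 2.22 (adjusted p = 0.126, and 0.0130 with the block) and Retn by 1.70 (adjusted p = 0.0939, and 0.0179 with the block), and the lipid droplet gene Cidec by 0.90 (adjusted p = 0.275).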
